A study of Homo sapiens with 2 samples.

Results

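The genes described here were RB1, CDKN2A, CDKN2B, CCND1, CCND2, CCND3, CDK4, CDK6, CCNE1 and CDKN1A, which regulate passage through the G1 phase of the cell cycle. They were chosen by gene symbol, and all 10 were found among the 27685 genes of the gene table; they have 27 of the 63714 transcripts of the transcript table. RNA-seq was performed on H2087 cells and on H596 cells, which are established human cell lines that the labels give as lung adenocarcinoma. Each cell line had 1 library of untreated cells grown in RPMI medium with fetal bovine serum. A difference between the cell lines therefore cannot be told apart from a difference between cultures or libraries.

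In G1, the D-type cyclins (CCND1, CCND2 and CCND3) bind and activate the kinases CDK4 and CDK6, which phosphorylate the retinoblastoma protein encoded by RB1. Unphosphorylated RB holds E2F transcription factors inactive, and its phosphorylation by the D-type cyclin kinases and then by cyclin E (CCNE1) with CDK2 releases the E2F program of DNA synthesis genes. The INK4 proteins p16, encoded by CDKN2A, and p15, encoded by CDKN2B, inhibit CDK4 and CDK6, while p21, encoded by CDKN1A, inhibits cyclin and CDK complexes. CDKN2A also encodes ARF from another first exon; ARF inhibits the ubiquitin ligase MDM2. This pathway is altered in many lung cancers, commonly by loss of CDKN2A or of RB1.

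The levels are FPKM values, which are scaled to transcript length and library size, so that genes can be compared per length. Total estimated counts were 46961500 for H2087 and 55387847 for H596. Intervals in parentheses after an FPKM or a fold are 95% intervals from the counts behind it. They cover counting error only and would be too narrow if both mates of a read pair had been counted. As no value has a replicate, no test between the cell lines was made. A gene was instead called different when log2(FPKM + 1) differed by at least 1 in either direction, a 2-fold size. This was examined where the FPKM averaged over both libraries reached 1, which held for 13048 genes. Of those, 32.4% were called, 18.2% higher and 14.2% lower in H596. The median difference of all tested genes, H596 minus H2087, was 0.12, and TMM scaling of the libraries, which assumes that most genes do not differ, brought it to 0.00. In TPM, which rescales each library to the same sum, the median was 0.29 over 14446 tested genes. The ratio of the scaling factors alone shifts log2 differences by 0.18 in TPM and by -0.13 with TMM. TPM values are also larger than FPKM values here, so the added 1 weighs less and low genes moved further. CCND2, for example, went from 2.02 as deposited to 3.08 in TPM. Differences smaller than the shifts by the factors can change sign with the scaling.

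The labelled cell type was examined by its markers. The adenocarcinoma markers NKX2-1, NAPSA and SFTPA1 had levels of 110.0, 21.9 and 82.9 FPKM in H2087, against 0.508, 0.0645 and 0 in H596, while KRT7 was high in both (791 and 608). SFTPB and SFTPC were at or near 0 in both libraries. Of 7 squamous markers, TP63, KRT5, KRT6A and DSG3 had FPKM values of 55.2, 106, 53.7 and 33.9 in H596, against 0.183, 0, 1.48 and 0 in H2087. SOX2 was present in both (39.1 in H2087 and 56.5 in H596), and KRT14 (0 and 1.33) and PKP1 (0.00766 and 0.353) were low in both. Since 3 of the adenocarcinoma markers were at or near 0 in H596, it is referred to by its name only. The epithelial markers EPCAM, CDH1, KRT8, KRT18 and KRT19 were present in both, at unlike levels. EPCAM (375 in H2087 and 65.0 in H596), KRT8 (2493 and 536) and KRT18 (3607 and 234) were called lower in H596. KRT19 (561 and 2183) was called higher, and CDH1 (52.3 and 59.6) was under 2-fold. Of other cell types, PTPRC, CD3E and COL1A2 had 0 counts in both libraries. The summed FPKM of 6 fibroblast markers was 3.97 in H2087 and 10.7 in H596, of which DCN gave 9.77. That of 4 endothelial markers was 2.57 and 1.02, and that of 5 leukocyte markers 132 and 25.7, nearly all of it CD68. The part of these marker differences in the results below was not tested.

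All 10 genes reached a mean FPKM of 1, CCND2 only through H596. Of the 10, 4 were called higher in H596 (CCND2, CCNE1, CDKN1A and CDKN2B), 2 were called lower (CDK4 and RB1) and 4 were under 2-fold (CCND1, CCND3, CDK6 and CDKN2A). Thus 6 of 10 were called, beside 32.4% of all tested genes. The call of CCND2 was fixed by the filter, since any gene at an FPKM of 0 in H2087 that passes it is called higher. In H2087, CDK4, CCND1 and CDKN2A had an FPKM of at least 100, the level the study used for high expression. In H596, only CDKN2A did.

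**Figure D1:**
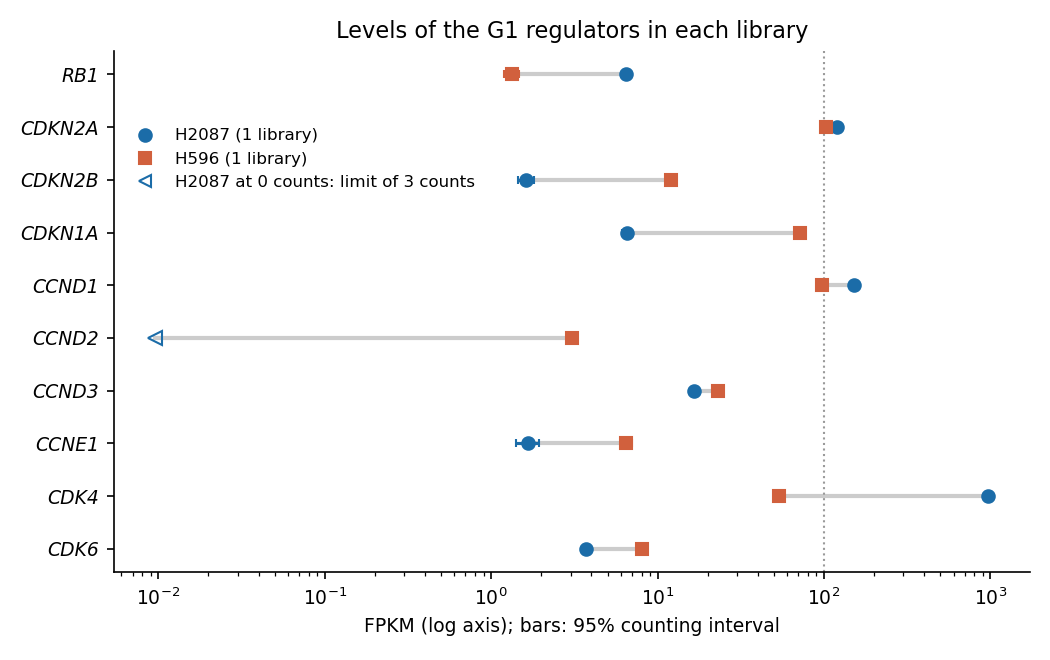
FPKM of the 10 G1 regulators on a log axis, with circles for H2087 and squares for H596 (1 library each), bars for 95% counting intervals, and an open triangle for CCND2 at 0 counts in H2087, drawn at the limit of 3 counts. The dotted line is an FPKM of 100; CDK4 lies far to its right in H2087 (961) and to its left in H596 (54.0), and CDKN2A lies just to its right in both.

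RB1 (gene 5925) encodes the retinoblastoma protein (hg19, chromosome 13, 48877883 to 49056026). Its FPKM was 6.42 (6.10 to 6.76) from 1469 counts in H2087, and 1.33 (1.20 to 1.48) from 361 counts in H596. RB1 was thus 4.82-fold (4.30 to 5.43) lower in H596, and the intervals were far apart. On the scale of log2(FPKM + 1) the difference was -1.67, and it was -1.77 after TMM scaling. In H596 it was the lowest of the 10 genes, at rank 12178 of all genes, against rank 7871 in H2087. A single transcript, NM_000321, was listed, so the table does not show whether the remaining reads covered the whole transcript. LPAR6, whose listed position lies within that of RB1, went the other way, with 0 counts in H2087 and an FPKM of 6.34 from 889 counts in H596. Reads shared by overlapping genes make the RB1 values less certain.

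The other pocket proteins, which share the binding of E2F with RB, differed by less than RB1. RBL1, which encodes p107, had an FPKM of 4.24 (1196 counts) in H2087 and 9.46 (3192 counts) in H596. The FPKM ratio was 2.23 (2.09 to 2.39), but the log2(FPKM + 1) difference was 0.997, just under the size for a call. RBL2, which encodes p130, had FPKM values of 20.8 and 10.9, a difference of -0.88 (past the size after TMM scaling). In H596, both were thus above RB1 in FPKM, whereas in H2087 RB1 lay above RBL1 and below RBL2. Of the 12 genes of the list of other pocket proteins, E2F factors and their DP partners, 0 were called higher in H596. Called lower were 2, E2F4 (73.3 and 29.1) and E2F5 (20.1 and 6.63), beside 32.4% of all tested genes called in either direction. RBL2 joined them after TMM scaling, and in TPM 4 genes, RBL1 among them, were called higher. E2F4 and E2F5 are the E2F factors best known as repressors together with p130 and p107. The activator E2F1 had FPKM values of 15.2 and 22.4, a difference of 0.53. TFDP1, the DP partner with the highest level, had values of 56.4 and 51.9.

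The E2F target genes of S phase mostly differed by less than 2-fold. Of 24 such genes, 1 was called higher in H596 and 0 lower, beside 32.4% of all tested genes called in either direction. The other 23 were under the 2-fold size on the log2(FPKM + 1) scale. The median difference of the 24 was -0.13, against 0.12 over all tested genes. After TMM scaling 1 was called higher and 3 lower, with a median of -0.26. In TPM 3 were called higher and 0 lower, with a median of 0.04. The sign of the median thus depends on the scaling. Under each scaling it lay below the median of all tested genes, which was 0.00 after TMM scaling and 0.29 in TPM. The gene called was CCNE2, which encodes cyclin E2, with FPKM values of 4.85 and 21.4. MCM2, part of the replicative helicase, had values of 73.5 and 87.1. PCNA, the sliding clamp of DNA polymerase, had values of 88.7 and 175, a difference of 0.97. CDC45 (20.5 and 9.87) and CDT1 (32.1 and 15.8), which act in origin licensing and firing, were lower in H596 by differences of -0.98 and -0.97. By FPKM alone they were 2.07-fold (1.93 to 2.24) and 2.03-fold (1.93 to 2.13) lower, but the added 1 kept them under the size. Of 7 subunits and partners of the DREAM complex, by which p130 and p107 repress cell cycle genes, 0 were called in either direction, with a median of -0.06 (0.12 in TPM). The mitotic activator FOXM1 had values of 32.8 and 31.3, and MYBL2 of 66.3 and 59.9. LIN37 and LIN9, core subunits, differed by 0.62 and -0.50, and RBBP4 by -0.45. Of 6 proliferation markers 1 was called, AURKA (35.5 and 74.1; not called after TMM scaling), while TOP2A had values of 82.5 and 113 and CDK1 of 71.9 and 45.8. All 6 reached an FPKM of 1 in both libraries.

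CDKN2A (gene 1029), on chromosome 9 of hg19 from 21967751 to 21994490, was among the more highly expressed genes in both libraries. Its FPKM was 119 (116 to 122) from 6667 counts in H2087, and 103 (100.6 to 106) from 6865 counts in H596. The values rank it 587 and 615 of all genes. It was 1.15-fold (1.11 to 1.19) higher in H2087, more than counting error, and the log2 difference was -0.20. After TMM scaling this was -0.34, and in TPM it was -0.02, so the size of the difference depends largely on the scaling.

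Of the 4 listed CDKN2A transcripts, 3 begin with exon 1α, from which p16 is read, and NM_058195 begins with exon 1β, from which ARF is read. With the exons of GENCODE release 44 mapped to GRCh37 (the same build as hg19), the deposited lengths of all 4 were rebuilt exactly. Exon 1β of NM_058195 covers 21994138 to 21994490 and exon 1α of NM_000077 covers 21974677 to 21975132, with 19005 bases between them. Both are spliced to the same exon 2, which is translated in different reading frames.

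The shared exon 2 and last exon hold 798 bases, or 69.3% of NM_058195 and 63.6% of NM_000077. Most of each transcript therefore cannot tell p16 from ARF, and the division between them is an estimate from the first exons. By that estimate the ARF transcript was the main one in both libraries. NM_058195 had an FPKM of 97.6 (5383 counts) in H2087 and 77.1 (5037 counts) in H596, which is 82.1% and 74.8% of the gene. NM_000077, the p16 transcript, had values of 14.5 (872 counts) and 13.6 (966 counts). NM_058197, whose exon 1α starts further downstream and extends into the intron, is known to encode the variant p12 and not p16. It had 5.50 (323 counts) and 12.2 (843 counts), and NM_001195132, which has an extra exon, had 1.28 and 0.223. The 3 transcripts with exon 1α together had 21.3 in H2087 and 25.9 in H596, so that the ARF transcript stood 4.59 and 2.97 times above them.

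**Figure D2:**
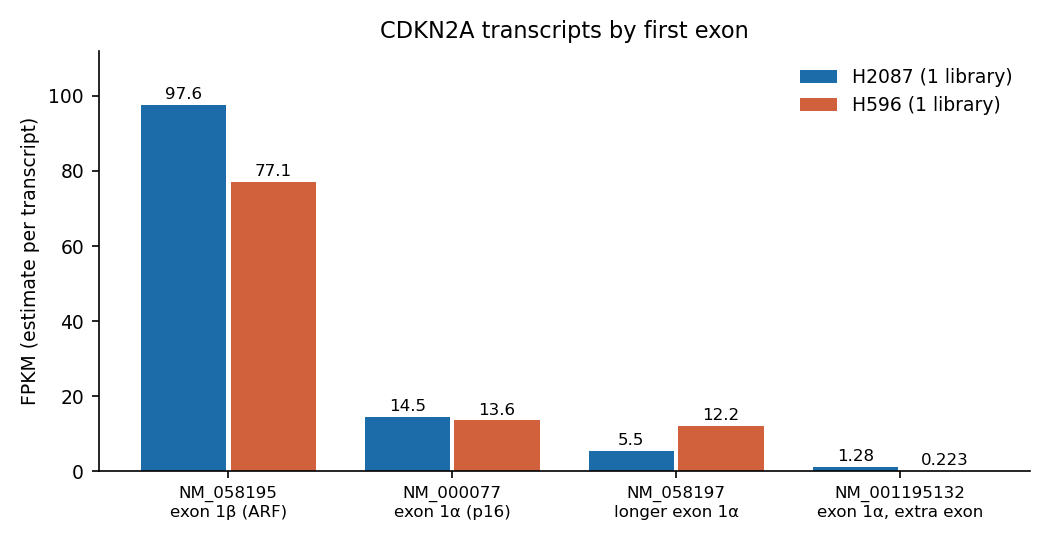
FPKM of the 4 listed CDKN2A transcripts (bars from 0) in H2087 and H596, 1 library each and with no error bars, as estimates per transcript. NM_058195, with exon 1β, is the highest in both libraries (97.6 and 77.1), and NM_058197 is the only one of the 4 that is higher in H596.

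CDKN2B (gene 1030), which encodes p15, lies beside CDKN2A from 22002902 to 22009312. Its FPKM was 1.61 (1.44 to 1.81) from 299 counts in H2087 and 12.1 (11.6 to 12.5) from 2648 counts in H596, which is 7.48-fold (6.63 to 8.46) higher in H596. The log2 difference was 2.32. NM_004936 carried 99.0% and 95.5% of it. The antisense gene CDKN2B-AS1, which overlaps CDKN2B, had FPKM values of 0.357 (48 counts) and 1.81 (203 counts), a difference of 1.05. The libraries were stranded, but it is not stated whether counting used the strand, so reads of this pair may have been mixed. After TMM scaling its difference was 0.99, just under the size. CDKN2A and CDKN2B are also paralogs of similar sequence, and how reads matching both were assigned is not stated. MTAP, on the other side of CDKN2A and commonly lost with it, had values of 11.97 and 10.2.

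The other INK4 genes were both called higher in H596, CDKN2C not after TMM scaling (0.97). CDKN2C, which encodes p18, had FPKM values of 10.7 and 24.0, and CDKN2D, which encodes p19, had values of 3.72 and 9.77. NM_000077 of CDKN2A, CDKN2B, CDKN2C and CDKN2D together reached 30.6 FPKM in H2087 against 59.4 in H596. With all 3 transcripts that have exon 1α this was 37.3 against 71.7; both sums were chosen after values were seen.

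CDKN1A (gene 1026), on chromosome 6 from 36644237 to 36655116, encodes p21. Its FPKM was 6.54 (6.07 to 7.05) from 683 counts in H2087 and 72.1 (70.6 to 73.6) from 8846 counts in H596. It was 11.01-fold (10.2 to 11.9) higher in H596, with a log2 difference of 3.28, the largest of the 10 genes in that direction on this scale. NM_000389 had values of 5.74 and 69.1, or 87.7% and 95.9% of the gene, and NM_001220778 had 0.784 and 2.73. Transcripts that begin upstream of these 2 were listed with at most 16 counts.

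Of the 4 other CDK inhibitors, 2 were called higher (the INK4 genes above) and 1 lower, beside 32.4% of all tested genes called. Those of the CIP/KIP family did not follow CDKN1A. CDKN1B, which encodes p27, had FPKM values of 13.99 and 13.5, a difference of -0.05, and CDKN1C, which encodes p57, had values of 2.46 (211 counts) and 0.475 (49 counts) and was called lower. In H2087 the p27 gene thus had a higher FPKM than CDKN1A, and in H596 a lower one. MDM2, which encodes the ubiquitin ligase that ARF inhibits, had values of 7.91 and 6.96, a difference of -0.16.

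**Figure D3:**
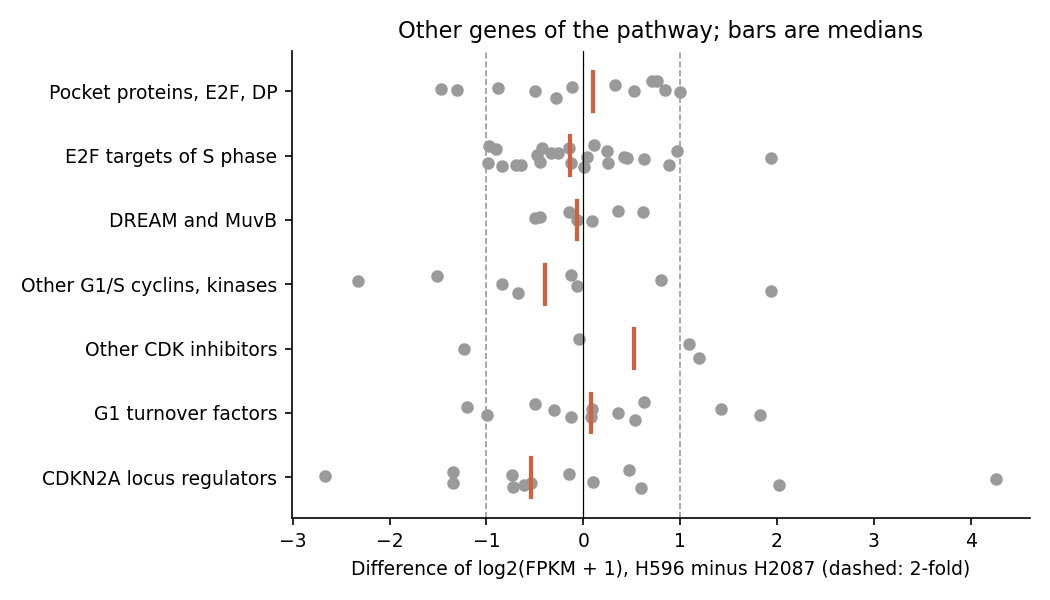
The change in log2(FPKM + 1) from H2087 to H596 for the tested genes of 7 lists of the pathway (grey points, scattered vertically for clarity) with each list's median (bar); dashed lines mark the 2-fold size. Of the 24 E2F target genes, 23 lie between the dashed lines, as do all 7 genes of DREAM and its partners.

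CCND1 (gene 595), which encodes cyclin D1, lies on chromosome 11 from 69455873 to 69469242 and was listed with 1 transcript, NM_053056. Its FPKM was 151 (149.5 to 153) from 31082 counts in H2087 and 97.8 (96.6 to 99.1) from 23812 counts in H596, 1.55-fold (1.52 to 1.57) higher in H2087. The log2 difference of -0.62 is under the 2-fold size.

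CCND2 (gene 894), on chromosome 12 from 4382902 to 4414522, encodes cyclin D2 and had 0 counts in H2087. In H596 it had 1135 counts, an FPKM of 3.06 (2.89 to 3.25). A count of 0 allows up to 3 counts, which would be an FPKM of 0.00960 in H2087. Against that limit it was at least 319-fold higher in H596. Its level in H596 was nevertheless low, at rank 10580.

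CCND3 (gene 896), on chromosome 6 from 41902671 to 42016632, encodes cyclin D3. Its FPKM was 16.6 (15.8 to 17.4) from 1644 counts in H2087 and 23.2 (22.3 to 24.0) from 2734 counts in H596, a ratio of 1.40 (1.31 to 1.48) and a log2 difference of 0.46. NM_001760 carried 78.9% and 82.5% of it. The transcripts NM_001136017 (1.82 and 1.302) and NM_001136126 (1.36 and 0.883), which start upstream at 42016632 and not at 41909586, went the other way, with 94 to 182 counts in each library. NM_001287434, with the same upstream start, was higher in H596 like the gene (0.0612 and 0.334, from 7 and 39 counts).

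Cyclin D1 was thus the main D-type cyclin in both libraries, with 90.1% of their summed FPKM in H2087 and 78.9% in H596. Cyclin D3 had 9.89% and 18.7%, and cyclin D2 0% and 2.47%. Their sum was 168 FPKM in H2087 against 124 in H596.

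CDK4 (gene 1019), on chromosome 12 from 58141510 to 58146230, showed the largest difference of the 10 genes on the log2(FPKM + 1) scale; with a pseudocount of 0.1 that of CCND2 was larger (4.98, against -4.15 for CDK4). Its FPKM was 961 (955 to 968) from 92255 counts in H2087, rank 66 of all genes, and 54.0 (52.6 to 55.3) from 6132 counts in H596, rank 1369. It was 17.8-fold (17.4 to 18.3) higher in H2087, with a log2 difference of -4.13. A single transcript, NM_000075, was listed.

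CDK6 (gene 1021), on chromosome 7 from 92234235 to 92465941, encodes the related kinase and went the other way. Its FPKM was 3.70 (3.55 to 3.86) from 2077 counts in H2087 and 8.10 (7.89 to 8.32) from 5375 counts in H596. This is a 2.19-fold ratio (2.08 to 2.30), but the log2(FPKM + 1) difference of 0.95 was not called, because the added 1 shrinks changes of low genes. With a pseudocount of 0.1 the difference was 1.11, and in TPM 1.21, both past the size. NM_001145306 had values of 3.17 and 6.17, and NM_001259 of 0.530 and 1.93.

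CDK4 thus made up 99.6% of the summed FPKM of CDK4 and CDK6 in H2087 and 86.9% in H596. By estimated counts, which grow with the longer CDK6 transcripts, these shares were 97.8% and 53.3%. The ratio of CDK4 to CDK6 was 260 in H2087 and 6.66 in H596. Relative to the summed FPKM of these kinases, 965 in H2087 and 62.1 in H596, the INK4 sum above stood at 0.0317 in H2087 and 0.956 in H596 with NM_000077 alone, and at 0.0387 and 1.16 with all 3 transcripts that have exon 1α. The D-type cyclins stood at 0.174 and 1.999. The summed FPKM of the kinases thus exceeded those of their cyclins and INK4 inhibitors in H2087. In H596 it lay below that of the cyclins, and whether it lay above or below that of the inhibitors depended on the CDKN2A transcripts counted. These ratios were chosen after values were seen, and amounts of protein were not measured.

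CCNE1 (gene 898), on chromosome 19 from 30302901 to 30315224, encodes cyclin E1. Its FPKM was 1.65 (1.41 to 1.94) from 156 counts in H2087 and 6.48 (6.02 to 6.97) from 712 counts in H596, 3.92-fold (3.29 to 4.69) higher in H596. The log2 difference was 1.49. NM_001238 held all of it in H2087 and 77.9% in H596 (5.04), where the other 3 listed transcripts had 45 to 62 counts each. As CCNE2 was also higher, both cyclin E genes were higher in H596. Their kinase CDK2 had values of 31.0 and 19.1, a difference of -0.67.

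Within H2087, the order of the levels was CDK4, CCND1, CDKN2A, CCND3, CDKN1A, RB1, CDK6, CCNE1, CDKN2B and CCND2. The counting intervals of CDKN1A and RB1 overlapped, as did those of CCNE1 and CDKN2B. Within H596 the order was CDKN2A, CCND1, CDKN1A, CDK4, CCND3, CDKN2B, CDK6, CCNE1, CCND2 and RB1, and no neighbours in it had overlapping intervals. The spread between replicates is not known for either order.

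**Figure D4:**
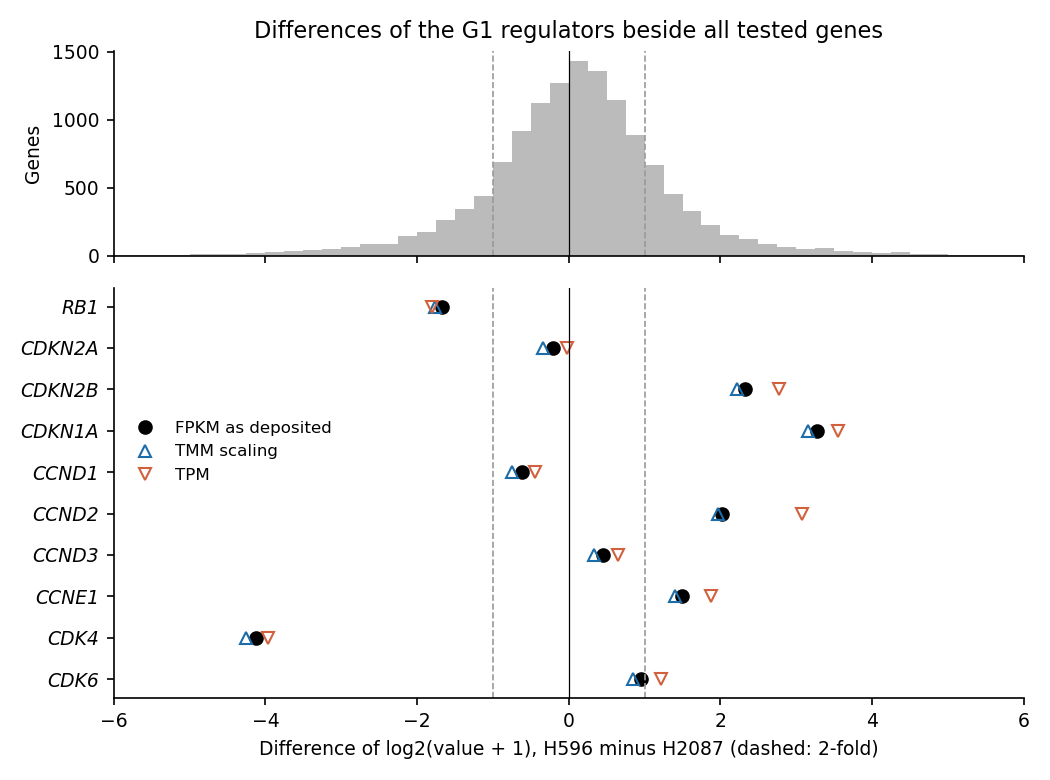
The upper panel is a histogram of log2(FPKM + 1) in H596 less that in H2087 over the 13048 tested genes (30 lie beyond the axis), and the lower panel gives the 10 regulators as deposited (filled circles), after TMM scaling and in TPM. Dashed lines mark the 2-fold size; no gene of the 10 changes sign with the scaling, CDK6 passes the size in TPM only, and CDKN2A lies nearest to 0.

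The position of the genes was not used to choose them. For each, the 10 tested genes on either side along the chromosome were taken. Around CDK4, 18 of 20 neighbours were lower in H596, 16 of them by at least 2-fold, with a median of -2.98; for the other 9 regulators, the median of the neighbours lay between -0.14 and 0.93. CDK4 stood in an unbroken run of 16 tested genes, from ARHGEF25 to ATP23 (58003963 to 58351052), all at least 2-fold lower in H596. In this run METTL1, a tRNA methyltransferase gene, had FPKM values of 149 and 11.9, TSFM, a mitochondrial elongation factor gene, 157 and 10.1, and CTDSP2, which encodes a phosphatase, 312 and 31.2. The run ended at DTX3 (-0.81) on the one side and at LRIG3 (0.82) on the other. Beyond DTX3, PIP4K2C was again lower in H596 (26.5 and 6.13, a difference of -1.95). Reads may have been shared between CDK4 and genes that overlap it. Without the overlapping genes, 18 neighbours remained, with a median of -2.84. AGAP2-AS1 alone among the 20 neighbours had a lower difference than CDK4, at -4.39. No DNA data were analysed here, and the part of copy number in this block was not tested.

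RB1 differed from its neighbours. Of the 20, 19 had a higher difference than RB1, and their median was 0.11. ITM2B, next to it, had FPKM values of 78.7 and 199.6, and RCBTB2, on the other side, had 0.586 and 4.46. CDKN1A lay above all 20 of its neighbours, whose median was 0.89, and CDKN2B, CCND2 and CCNE1 likewise lay above all 20 of theirs, with medians of 0.83, 0.14 and 0.62. The lead of CCNE1 was small, at 1.49 against 1.47 for its highest neighbour. With 20 genes on each side, 3 of 40 lay above CCNE1, while CDKN1A, CDKN2B and CCND2 still lay above all 40 of theirs. CDKN2A lay below 16 of its 20 neighbours, which had a median of 0.86 and overlap with those of CDKN2B. A neighbour under an FPKM of 1 in one library passed the filter only through the other, which fixed its direction. Among such genes under 1 in H2087 were ACER2, MIR31HG, IFNE, CDKN2B-AS1 and MOB3B near CDKN2A, and LPAR6, RCBTB2 and CAB39L near RB1. Among those under 1 in H596 were LCP1 near RB1, and B4GALNT1, MIR6759, CYP27B1 and AVIL near CDK4. These medians and counts were thus partly fixed by the filter. The 20 genes around CDKN2A reached from 19115759 to 32526322, and those around CCNE1 from 23835708 to 33621318. Those around CDK4 lay between 57912948 and 58351052, so the neighbours are not equally near. With 20 genes on each side, the medians around CDKN2A and CDKN2B were 0.21 and 0.01. Around CDKN2A, MIR31HG (0.316 and 4.83) and KLHL9 (2.53 and 7.68) were called higher in H596. All 20 neighbours of CCND3 were higher in H596, with a median of 0.93, and CCND3 itself lay below 16 of them. Around CCND1 the median was -0.09, yet MYEOV (47.7 and 2.07) and CTTN (154 and 54.3), which encodes cortactin, were called lower, and ANO1 (0.894 and 5.83), a chloride channel gene, higher. Around CDK6 the median was -0.14.

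The lists of genes near 4 of the regulators, which overlap with these neighbours, gave like counts. Of 7 tested genes of 9p21 near CDKN2A, 4 were called higher and 0 lower in H596, with a median of 1.05. Of 11 genes of 13q14 near RB1, 4 were called higher and 0 lower, with a median of 0.31, a share near the 32.4% called of all tested genes. A gene under an FPKM of 1 in H2087 passes the filter only through H596 and can then be called only higher. MIR31HG, IFNE and CDKN2B-AS1 at 9p21 and LPAR6, RCBTB2 and CAB39L at 13q14 were such genes, so these counts were partly fixed by the filter. Of 8 genes of 11q13 near CCND1, 1 was called higher and 2 lower, with a median of 0.01, a share near the 32.4% called of all tested genes. All 9 genes of 12q14 near CDK4 were called lower, with a median of -3.39.

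**Figure D5:**
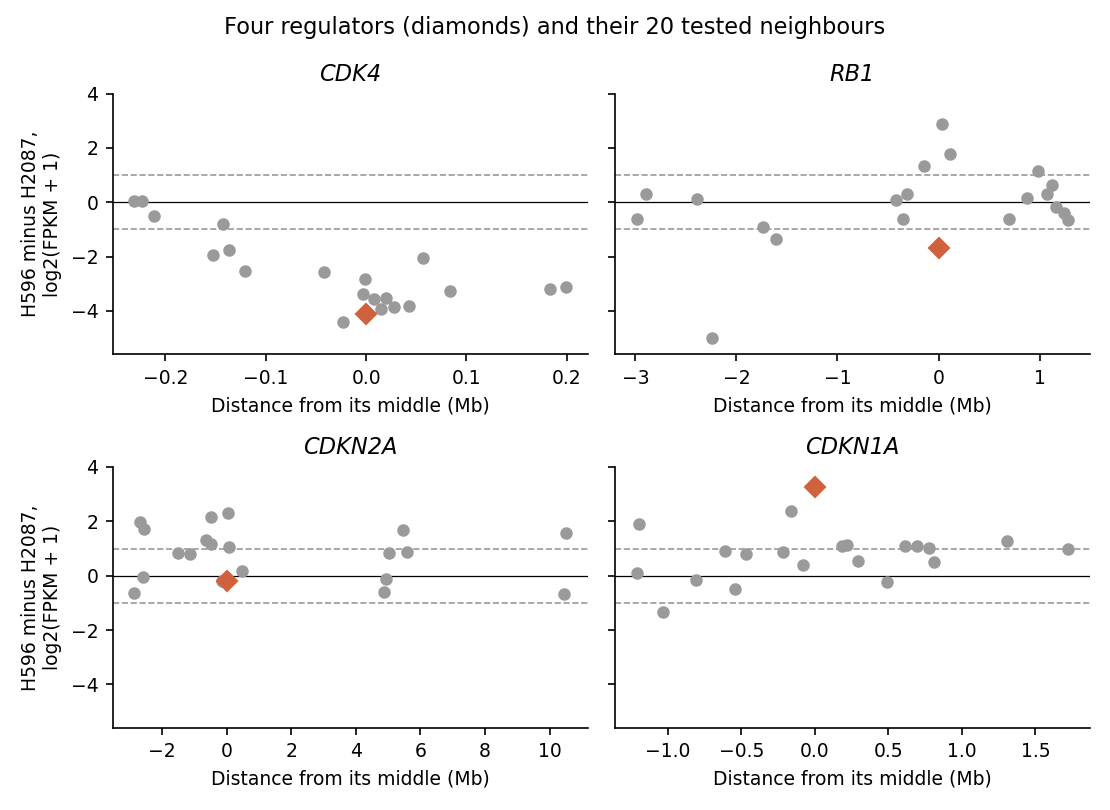
For CDK4, RB1, CDKN2A and CDKN1A (diamonds) and the 10 tested genes on each side (grey points), log2(FPKM + 1) in H596 less that in H2087 is plotted against the distance from the middle of the regulator in megabases; dashed lines mark the 2-fold size. The neighbours of CDK4 lie low with it (median -2.98), while RB1 lies below and CDKN1A above most of their neighbours.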

How the data were processed

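RNA-seq of H2087 and H596 cells, 1 library each, was used. The authors made TruSeq stranded mRNA libraries for an Illumina HiSeq4000, mapped reads with HISAT2 2.0.5 (hg19) and estimated RefSeq transcript abundance with StringTie 1.3.3b, after bcl2fastq 1.8.4 and Trimmomatic per the submitters' processing notes. The deposited tables give, per gene and per transcript, an estimated count (a whole number, by a method not given in the sources used here) and an FPKM value that the authors normalized to transcript length and library size. The total estimated counts were 46961500 and 55387847.

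Differences of log2(FPKM + 1) were taken over the whole gene table, with a mean FPKM of at least 1 and a size of 1 as thresholds. FPKM intervals are 95% Wilson intervals of the share of the total count, intervals of folds are exact binomial (Clopper-Pearson) intervals of the split of the counts (scipy 1.17.1), and 3 counts were the limit for 0. The calls and intervals were tested on simulated counts with counting error only. The spread between cultures or libraries was not part of that simulation, so it does not bear on that limit. TMM factors came from edgeR 4.0.16 in R 4.3.3. For 2 rows that repeated a symbol, the row with the higher FPKM was used for that symbol. Python 3.11.15, pandas 2.3.3 and numpy 2.4.6 were used.

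Alternatives were TMM scaling, TPM, centring, a pseudocount of 0.1, transcript values, other thresholds, counts in place of FPKM for shares, and other numbers of neighbours. The genes and the 19 gene lists were chosen with earlier results of these data known. From each list, the 3 genes with the largest difference and the 2 with the highest mean FPKM could be named, besides the 10 regulators, their transcripts with an FPKM of at least 1, and RBL1, RBL2, E2F1, CDKN1B, CDKN2C, CDKN2D, CDK2, CCNE2, MDM2, MTAP and CDKN2B-AS1. NM_001287434, METTL1, ARHGEF25, ATP23, DTX3, PIP4K2C, LRIG3, AGAP2-AS1, MNAT1, CAB39L, ACER2, MOB3B, LCP1, B4GALNT1, MIR6759 and AVIL, and the markers KRT14, KRT6A, PKP1, SFTPB, SFTPC, CDH1, KRT19, PTPRC, CD3E and COL1A2, were named after their values were seen. Of the listed genes, 2 symbols were not found in the table. Exons are from GENCODE release 44 mapped to GRCh37. Protein sequences were not used here, and values of some genes and sequences covered by the rule and lists are not reported here.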

Additional observations from a re-analysis of the deposited data

How the results depend on the processing

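All 10 regulators kept the sign of their difference under a pseudocount of 0.1, TMM scaling, TPM, centring, the highest single transcript and the sum over transcripts. The number of regulators at least 2-fold different was 6 or 7 under these (the seventh, CDK6, with the pseudocount and in TPM) and without a filter. It was 2, and 1986 genes in all, with a mean FPKM of at least 10, since only 5 of the 10 were then examined. In H2087, 1 regulator reached an FPKM of 200, in place of 3 at 100. In H596, 4 reached an FPKM of 50 and 4 reached 100 TPM, while 0 reached an FPKM of 200 and 0 reached 100 by the highest single transcript, in place of 1. In counts, which grow with transcript length, the shares were 94.98% and 86.0% for CCND1, 5.02% and 9.88% for CCND3, 4.10% for CCND2 in H596, 97.8% and 53.3% for CDK4 (of CDK4 and CDK6) and 80.7% and 73.4% for NM_058195 in H2087 and H596. With NM_000077 alone for p16, chosen after seeing the data, NM_058195 had 87.1% and 85.0%, and the ratio of INK4 to CDK4 and CDK6 in H596 was 0.956, below 1, in place of 1.16. With 20 genes on each side, 0 regulators had neighbours with a median of at least 1 in size, in place of 1 (CDK4), whose 40 neighbours had -0.87, since the wider window reaches past the block. No paired analysis was possible because there was a single library per line; leaving out a library was likewise not possible.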

Other observations

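CDKs need phosphorylation by the CDK-activating kinase, made of CDK7, cyclin H (CCNH) and MNAT1. CCNH had an FPKM of 65.2 (4466 counts) in H2087 and 12.2 (999 counts) in H596, and CDK7 had values of 49.8 and 16.8. MNAT1 hardly differed (28.0 and 26.8, a difference of -0.06). CCNH and CDK7 were the 2 genes called lower in H596 among the 8 tested genes of other G1/S cyclins and kinases. Among these 8, CCNE2 alone was called higher, and the median was -0.40. The share called is near the 32.4% of all tested genes. Among 12 factors that turn over G1 regulators, 2 were called higher in H596. They were SKP2, the F-box protein that marks p27 for degradation (15.8 and 43.8), and FBXO4 (5.05 and 20.4). SKP1, the adaptor of these ligases, was called lower (201 and 87.0), and CKS1B, the cofactor of SKP2, had values of 229 and 115, a difference of -0.99 (-1.12 after TMM scaling). The median of these 12 was 0.08, and their calls stand beside 32.4% called of all tested genes.

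Among 13 regulators of the CDKN2A locus, 2 were called higher in H596 and 3 lower, with a median of -0.54; the share called is near the 32.4% of all tested genes. ID1, an inhibitor of the helix-loop-helix factors that activate p16, had an FPKM of 49.5 (2409 counts) in H2087 and 970 (55735 counts) in H596, 19.6-fold (18.8 to 20.4) higher. The factor ETS2 was higher in H596 as well (13.3 and 56.8), and ETS1 lower (19.2 and 2.19). PHC2, of the Polycomb complex PRC1, was lower (66.0 and 25.4). CDKN2A itself differed by -0.20 beside these values, but most of its FPKM was of the ARF transcript. Its transcripts with exon 1α together had 21.3 FPKM in H2087 and 25.9 in H596.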
